A study of Pyrus pyrifolia with 2 samples.

Results

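Among the loci assembled from RNA-seq reads of wounded sand pear tissue (Pyrus pyrifolia, cultivar Shuijing), 353 lay antisense to an annotated gene. They were chosen by position alone. A member is a locus with a strand and no annotated transcript, of which at least 50% of the span is covered by the span of an annotated transcript on the opposite strand, and which overlaps no annotated transcript on its own strand. They are 353 of 45905 loci in all, and 353 of the 2929 assembled loci that carry a strand and hold no annotated transcript. The covered share of the span was 50.5% for the member just inside the threshold, and 49.6% for the nearest locus left out. The study has 2 groups of 1 library each, yeast-treated and water-treated. In the yeast-treated group a suspension of the yeast Wickerhamomyces anomalus, a biocontrol agent against fruit decay, was placed in the wounds at 30 μL a wound. In the water-treated group the wounds received 30 μL of sterilized water. Both groups share the cultivar and wounding, and were held for 3 days at 28 °C and 95% relative humidity. How many fruits went into a library is not stated in the labels.

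Antisense transcripts are RNAs copied from the strand opposite a gene. In plants they include long noncoding RNAs that overlap the exons of the sense gene, the transcribed ends of convergent neighbours, and whole genes nested inside a long intron of another gene. An antisense RNA that overlaps the sense messenger RNA can form double-stranded RNA with it, and some plant antisense RNAs are known to act on the chromatin of the gene they cross. Where a sequencing library does not keep strand, an assembler can still take the strand of a spliced locus from the bases at its splice sites, while a locus without an intron offers no such cue.

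Whether the libraries kept strand is not given in the sources used here. All 1177 transcripts without a strand had a single exon, and no transcript of 2 or more exons lacked a strand. Of the 353 members, 334 had 2 or more exons and 19 had a single exon. The exon positions of transcripts are not in the tables used here, so overlap is overlap of spans, introns included. Build, annotation release and genome sequence were not at hand, so coordinates are as the tables give them, 1-based. The tables give locus and gene identifiers without products. What the sense genes encode is therefore not stated, and no marker of fruit tissue could be read. In bulk tissue, fewer cells of a type and less RNA per cell cannot be told apart.

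Depth was estimated from the deposited coverage as 16753518 read pairs in the yeast-treated library and 19367039 in the water-treated library. Members held 83824 of them after yeast treatment and 93080 after water, or 0.532% (yeast) and 0.511% (water) of the pairs assigned to loci. With 1 library per treatment there is no replicate spread and no test. Intervals printed beside ratios and shares are exact (Clopper-Pearson) 95% intervals and cover counting error only. A floor of 3 read pairs over 1 kilobase equals 0.179 FPKM (fragments per kilobase, scaled to depth) after yeast treatment and 0.155 FPKM after water.

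Most members were short, spliced once and assembled as a single transcript. Of the 353, 247 had 2 exons, 87 had 3 or more and 19 had 1. A single transcript made up 328 of them, and no member had more than 4. The median length without introns was 323 bases (quartiles 263 and 675) and the longest reached 4320 bases. The median span was 533 bases, with quartiles of 344 and 1799. On the plus strand lay 189 members and on the minus strand 164. Of the 1990 assembled loci that overlap no annotated transcript, 583 had 2 exons, 738 had 3 or more and 669 had 1. The 2-exon loci were thus 247 of 353 members and 29.3% of those loci. Among assembled loci with a smaller overlap with the opposite strand, under 50% of the span, 281 of 373 (75.3%) had 2 exons, and among those overlapping a transcript on their own strand 107 of 213 (50.2%) did.

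The introns of 2-exon members were short. For a 2-exon locus with 1 transcript, span minus length is the length of its intron. Over the 236 such members the median intron was 84.5 bases (quartiles 58 and 221), against 287 bases over 543 such assembled loci without overlap and 290 bases over 5887 annotated genes. An intron under 70 bases was present in 87 of the 236 members (36.9%), in 22 of the 543 loci without overlap (4.05%) and in 80 of the 5887 annotated genes (1.36%). Under 50 bases the counts were 44 members (18.6%), 12 loci without overlap (2.21%) and 10 annotated genes (0.170%). Among the 256 such loci with a smaller opposite-strand overlap, 43 (16.8%) had an intron under 70 bases and 25 (9.77%) under 50, while their median intron was 4027 bases. The span includes the intron, so a long intron makes the 50% rule harder to meet. The intron lengths of the members therefore depend in part on the rule. Both limits were chosen after the values were seen. The shortest intron was 21 bases among the members, 21 among the loci without overlap and 20 among the annotated genes.

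**Figure D1:**
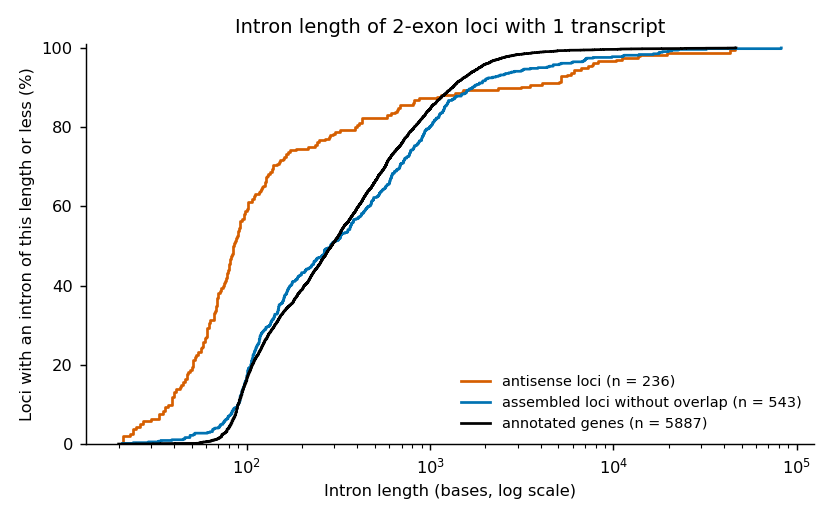
Cumulative share of 2-exon loci with 1 transcript (y axis, %) by intron length (x axis, bases, log scale), for antisense loci, assembled loci without overlap and annotated genes. The curve of the antisense loci crosses the middle of the axis at 84.5 bases, against 287 and 290 bases for the others.

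At the other end, a few members of 2 exons had very long introns. The longest was 46044 bases, on chromosome 17 (4398930 to 4445480, plus strand). That member is 507 bases long without it, and was at 2.24 FPKM after yeast treatment and 2.04 FPKM after water. On the plus strand of chromosome 16, a pair of members (1037869 to 1081358 and 1038041 to 1081519) each had an intron of exactly 43249 bases, and their lengths without it were 241 and 230 bases. They held 7.5 and 8.4 read pairs in the yeast-treated library and 8.0 and 4.5 in the water-treated library, few enough that their levels are poorly fixed.

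Relative to the sense gene, 288 members lay wholly inside its span. Of the other 65, 42 reached past its start only, 21 past its end only and 2 past both. Annotated transcripts have lengths that are multiples of 3 in 100% of cases, so their ends are those of the coding sequence and a gene's untranslated regions lie outside them. Members wholly inside were spread along the sense gene: counted by their midpoint from its start, 48 fell in the first of 5 equal parts, then 63, 73, 60 and 44. The nearest annotated transcript on the member's own strand was a median of 10186 bases away, over the 348 members that had one, and it lay within 1000 bases for 15 of them.

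How much coding sequence a member crosses can be bounded from lengths alone. If a member inside the sense span is longer than all the non-coding bases of that span, the excess must overlap coding sequence. This held for 29 members, of which 20 had 2 exons and a gap (span minus length) of up to 200 bases. For 10 of the 29 the sense gene had a single exon, so the whole member lay on coding sequence, and all 10 were themselves spliced. Their best covered case was on the plus strand of chromosome 13 (4672420 to 4672707), a locus of 267 bases with an intron of 21 bases. It was at 17.7 FPKM in the yeast-treated and 21.4 FPKM in the water-treated library, while its intronless sense gene was at 30.8 FPKM (yeast) and 38.9 FPKM (water). Next was a locus on the plus strand of chromosome 15 (31010576 to 31010924) with an intron of 51 bases, at 10.9 FPKM in the yeast-treated and 12.2 FPKM in the water-treated library, opposite a gene at 137 FPKM (yeast) and 147 FPKM (water). These 10 loci lay opposite genes with signal in both libraries. For the remaining members, lengths do not decide between exon and intron.

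The genes with a member opposite were long and usually expressed. The 353 members lay opposite 313 annotated loci, whose median span was 6088 bases, against 1998 bases for the 41486 annotated loci with none. Among loci averaging 1 FPKM or more the medians were 5392.5 bases for sense loci and 2989 bases for the others. A span over 10000 bases was found for 110 of the 313 (35.1%) and for 1357 of the 41486 (3.27%). The rule asks that the span of a gene cover the member, so a longer gene has more room to hold one. These comparisons of span are therefore set in part by the rule. An average of 1 FPKM or more was reached by 86.3% of the sense loci and by 45.9% of the other annotated loci. Span was not adjusted for in these comparisons of level. By chromosome, members ranged from 4.85 per 1000 annotated loci on chromosome 9 to 14.3 on chromosome 4, and chromosome 15, with the most annotated loci, had 42 members.

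Levels were low for most members and very high for a few. The median was 3.49 FPKM in the yeast-treated library and 3.78 FPKM in the water-treated library, with upper quartiles of 11.0 and 10.2. In read pairs, the median was 30.4 in the yeast-treated and 29.8 in the water-treated library, and 81 and 73 members held under 10 pairs. Averaged over both libraries, 328 members reached 1 FPKM, 50 reached 20 FPKM and 10 reached 100 FPKM. Listed at 0 were 5 members in the yeast-treated library and 4 in the water-treated library. The 5 members with the most read pairs took 49.7% of all member pairs in the yeast-treated library and 46.6% in the water-treated library.

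The antisense share is the share of read pairs at the member out of those at the member and its sense gene together. It is counted in pairs, not per length. Whether the libraries kept strand is not known here, so levels and shares take the pairs as the deposited coverage assigned them. Where exons of member and sense gene overlap, that assignment could not be checked. The median share over members was 8.16% in the yeast-treated and 8.39% in the water-treated library. Pooled, with each sense gene counted once, it was 16.2% (16.1 to 16.3) in the yeast-treated library and 15.1% (15.0 to 15.1) in the water-treated library. The pooled share rests on few loci: without the 5 members with the most pairs it was 8.94% (yeast) and 8.72% (water). Per length, the member was above its sense gene in FPKM in both libraries at 102 of the 353.

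The share differed with the structure of the member. At the 87 members of 3 or more exons, its median was 46.7% in the yeast-treated and 49.3% in the water-treated library, and the member exceeded the sense gene in FPKM in both libraries at 53. At the 184 members of 2 exons with a gap of up to 200 bases, the median share was 4.72% after yeast treatment and 4.54% after water, and 27 exceeded the sense gene in FPKM in both libraries. At the 63 members of 2 exons with a longer gap it was 6.44% (yeast) and 5.38% (water), and at the 19 single-exon members 4.44% (yeast) and 6.08% (water). The members of 3 or more exons held 79.6% of all member pairs in the yeast-treated and 78.0% in the water-treated library. They had a median length of 1140 bases and lay in long genes with a median span of 25052 bases, of which a median of 87.8% was not coding. The short-gap members had a median length of 281.5 bases, in genes with a median span of 3663 bases, of which a median of 53.6% was not coding. Sense levels differed too, with medians of 3.28 FPKM (yeast) and 3.35 FPKM (water) opposite members of 3 or more exons. Opposite short-gap members they were 10.6 and 10.8 FPKM. Where the sense gene averaged 5 to 20 FPKM, 22 members of 3 or more exons had median shares of 15.2% (yeast) and 14.4% (water). The 100 members of 2 exons there had 2.99% and 3.31%. The division at 200 bases was made after the values were seen.

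**Figure D2:**
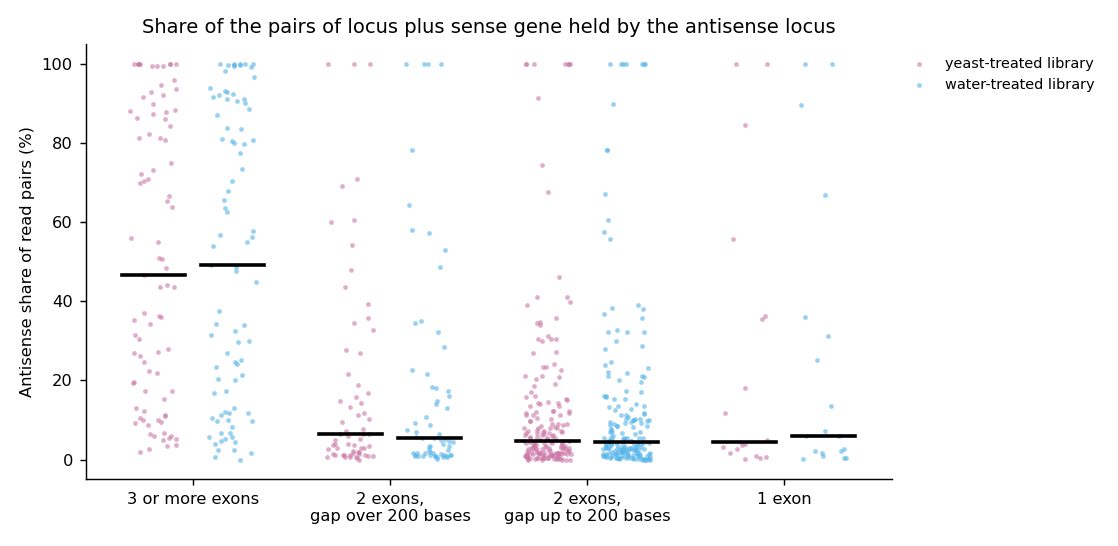
Antisense share of read pairs (y axis, %) for each of the 353 members, by structure, with the yeast-treated library left of the water-treated library and horizontal bars at the medians. Members of 3 or more exons spread over the whole range with medians of 46.7% (yeast) and 49.3% (water), and those of 2 exons crowd near the bottom with medians between 4.54% and 6.44%.

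The level of 2-exon members went with the level of the sense gene, while that of members with 3 or more exons did so less. Across the 184 short-gap members, Spearman's rho between member and sense FPKM was 0.52 in the yeast-treated and 0.53 in the water-treated library, and Pearson's r of log2(FPKM + 1) was 0.55 in each. Across the 87 members of 3 or more exons, rho was 0.19 (yeast) and 0.14 (water), and r was 0.33 (yeast) and 0.30 (water). These are descriptions across loci of the same libraries, some of which share a sense gene, and the difference between the classes was not tested. In steps, 2-exon members had a median of 1.75 FPKM in the yeast-treated and 1.64 FPKM in the water-treated library where the sense gene averaged 1 to 5 FPKM (41 members). The medians, yeast-treated then water-treated, were 2.87 and 2.67 FPKM at 5 to 20 FPKM of the sense gene (100 members), 11.7 and 12.1 FPKM at 20 to 100 FPKM (62 members), and 18.2 and 17.2 FPKM at 100 FPKM or more (18 members). Below 1 FPKM of the sense gene, 26 members of 2 exons had medians of 2.01 FPKM (yeast) and 1.45 FPKM (water). The 26 members of 3 or more exons opposite such genes had medians of 7.76 FPKM (yeast) and 7.66 FPKM (water).

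**Figure D3:**
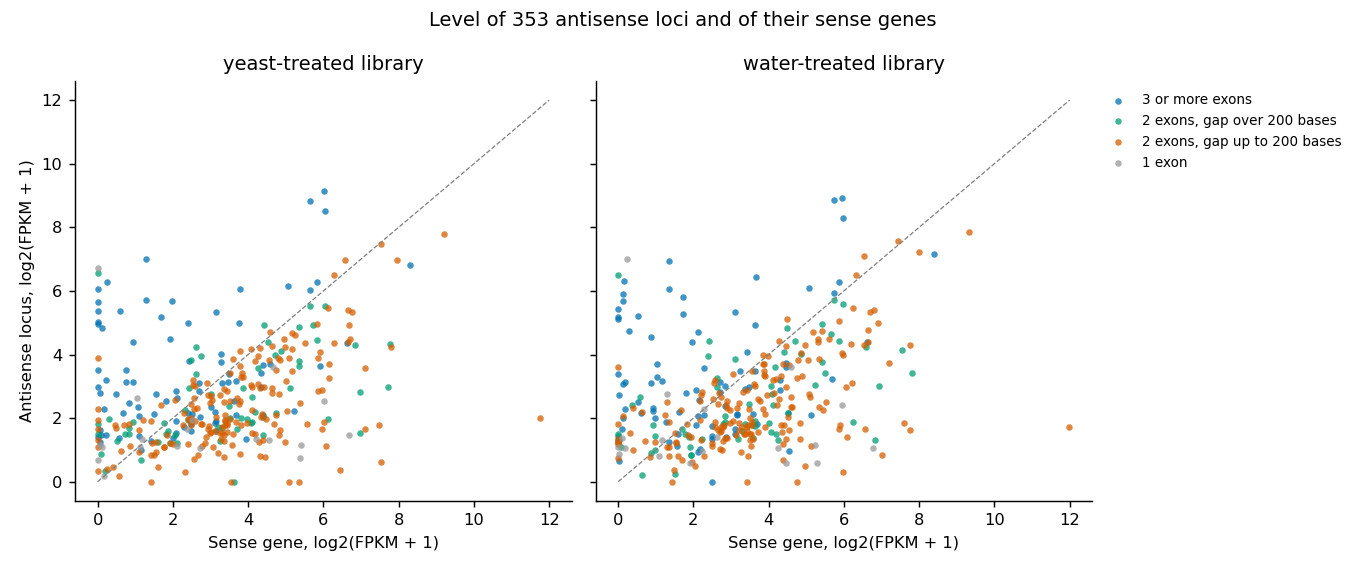
Level of each member (y axis) against that of its sense gene (x axis), both as log2(FPKM + 1), in the yeast-treated library (left) and the water-treated library (right), coloured by structure, with a dashed line at equal levels. Members of 2 exons lie mostly below the line and climb with the sense gene, and those of 3 or more exons also fill the area above it.

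The 10 members with the most read pairs lay in long genes, and 8 of them had 3 or more exons. The most abundant lay on the plus strand of chromosome 17 (8456949 to 8462624), a locus of 13 exons and 2348 bases. It was at 560.0 FPKM in the yeast-treated and 481 FPKM in the water-treated library, inside a 22-exon gene (8409370 to 8466048) at 63.6 FPKM (yeast) and 60.5 FPKM (water). It took 81.3% of the pairs of the couple in the yeast-treated and 79.7% in the water-treated library. An 8-exon locus on the minus strand of chromosome 4 (6096711 to 6100710) was at 363 FPKM in the yeast-treated and 316 FPKM in the water-treated library, inside a 10-exon gene of 47400 bases at 64.8 FPKM (yeast) and 62.1 FPKM (water). A 3-exon locus on the plus strand of chromosome 2 (19744953 to 19746842) was at 454 FPKM (yeast) and 465 FPKM (water), inside a 14-exon gene at 48.6 FPKM (yeast) and 52.5 FPKM (water). These 3 loci stood far above their sense genes in both libraries. A further member of 2 exons lay in the same 14-exon gene (19753853 to 19755999), at 45.5 FPKM in the yeast-treated and 51.1 FPKM in the water-treated library.

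The other loci among these 10 were lower. On the minus strand of chromosome 15, a 6-exon locus (10732319 to 10738312) was at 69.6 FPKM in the yeast-treated and 67.5 FPKM in the water-treated library. Another 6-exon locus there (31618501 to 31620544) was at 66.1 FPKM (yeast) and 85.0 FPKM (water), opposite a 16-exon gene at 12.9 FPKM in the yeast-treated and 11.6 FPKM in the water-treated library. A 4-exon locus on the plus strand of chromosome 2 (17380382 to 17384186) was at 63.6 FPKM after yeast treatment and 60.7 FPKM after water, close to its sense gene at 49.2 FPKM (yeast) and 52.7 FPKM (water). The last 3 lay opposite genes with little or no signal. On chromosome 6 (11477221 to 11479888, minus strand), a 6-exon locus had 77.2 FPKM after yeast treatment and 78.2 FPKM after water, with its sense gene at 0.184 FPKM (yeast) and 0.121 FPKM (water). On chromosome 12 (21270588 to 21283122, minus strand), a 4-exon locus had 40.0 FPKM (yeast) and 35.7 FPKM (water), with its sense gene at 0.502 FPKM (yeast) and 0.440 FPKM (water). On chromosome 8 (1764906 to 1766873, plus strand), a 2-exon locus had 93.2 FPKM (yeast) and 89.3 FPKM (water), and its sense gene was listed at 0 in both libraries.

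**Figure D4:**
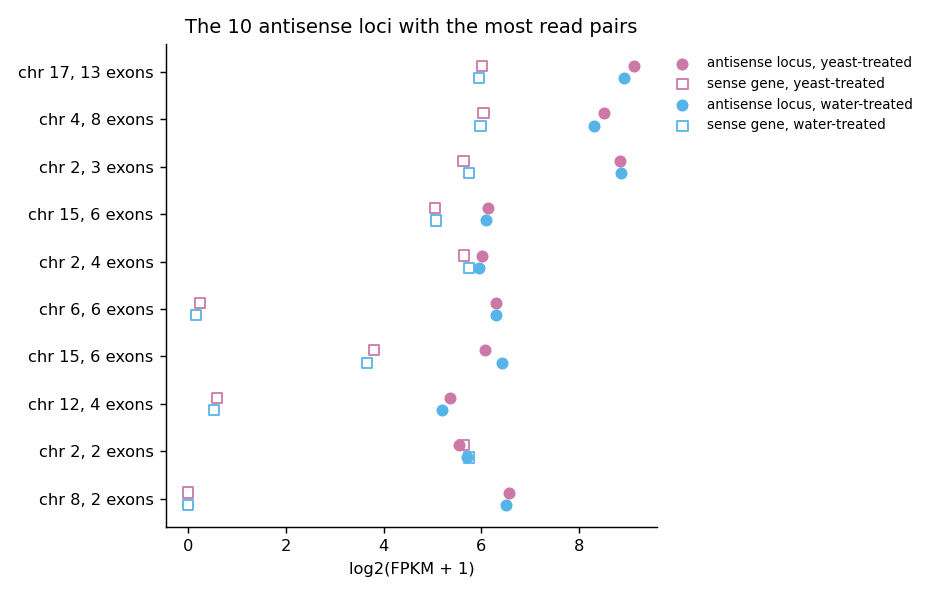
Level as log2(FPKM + 1) (x axis) of the 10 members with the most read pairs (filled circles) and of their sense genes (open squares), labelled by chromosome and exon number, with the yeast-treated library drawn above the water-treated library in each row. Treatments nearly coincide within each locus, while member and sense gene are far apart in most rows.

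In all, 15 members lay opposite a gene listed at 0 in both libraries, and those genes numbered 13. The highest of these members was the locus on chromosome 8 just described. The next 2 were 3-exon loci side by side in a 7-exon gene of 46484 bases on an unplaced scaffold. One was at 40.0 FPKM after yeast treatment and 42.6 FPKM after water, the other at 31.8 FPKM (yeast) and 33.8 FPKM (water). Among members with 20 or more read pairs in both libraries whose sense gene had any signal, the share was highest for a single-exon locus of 495 bases on an unplaced scaffold. It was at 106 FPKM in the yeast-treated and 128 FPKM in the water-treated library, and its sense gene was listed at 0 after yeast treatment and at 0.178 FPKM after water.

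Several genes held more than 1 member. Of the 313 sense loci, 23 had 2 members, 4 had 3 and 3 had 4, and these 30 genes held 70 members, 41 of them with 3 or more exons. On chromosome 7, an 8-exon gene with little or no signal (12485545 to 12503695) faced 3 neighbouring minus-strand members. From lowest to highest coordinate they had 5, 6 and 8 exons. In the yeast-treated library they were at 49.6, 65.1 and 6.89 FPKM, and in the water-treated library at 50.7, 59.4 and 7.47 FPKM, while the sense gene was listed at 0 and at 0.0926 FPKM. The member with 8 exons was thus several-fold below its neighbours, which were close to each other. On chromosome 6, a 2-exon gene of 30983 bases (7417590 to 7448572), at 0.0387 FPKM in the yeast-treated and 0.0168 FPKM in the water-treated library, faced 4 members. These lay between 1.21 and 5.85 FPKM after yeast treatment and between 0.586 and 5.58 FPKM after water.

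Some short-gap members of 2 exons were abundant too. The highest lay on the minus strand of chromosome 13 (7532306 to 7532665), with an intron of 61 bases, at 222 FPKM in the yeast-treated and 231 FPKM in the water-treated library. Its sense gene was at 593 FPKM (yeast) and 641 FPKM (water). On chromosome 6 (19197198 to 19197616, minus strand), a locus with an intron of 33 bases had 179 FPKM after yeast treatment and 189 FPKM after water, beside a 7-exon gene at 184 FPKM (yeast) and 174 FPKM (water). Of the 184 short-gap members, 5 averaged 50 FPKM or more. The sense genes of these 5 lay between 76.7 and 593 FPKM after yeast treatment and between 78.5 and 641 FPKM after water. This set was singled out after its values were seen.

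The question put to the treatment was which of these loci differ between yeast-treated and water-treated wounds. Ratios were taken as log2((yeast FPKM + 1)/(water FPKM + 1)) for loci averaging 1 FPKM or more, here called measured, and a locus past 1 or -1 was counted as past 2-fold. Of the 328 measured members, 15 (4.57%) passed, 2 of them higher after yeast treatment and 13 lower. The background over all 22928 measured loci was 0.829%, made up of 0.427% higher and 0.401% lower. A locus can reach the average through its higher library alone, and 12 of the 13 lower members were under 1 FPKM after yeast treatment, as was 1 of the 2 higher ones after water. When 1 FPKM was required in both libraries, 2 of 289 members were past 2-fold, 1 in each direction, against 0.314% of 21961 loci. Of the 15, 13 thus passed the filter only through their higher library. The median log2 ratio was 0.02 over the measured members and 0.01 over all measured loci, and the quartiles of the members were -0.19 and 0.27. The split of 2 higher and 13 lower depended on the pseudocount: with 0.1 FPKM in place of 1 it was 19 higher and 19 lower, and with 5 FPKM none was past 2-fold.

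All 15 members past 2-fold had a mean under 20 read pairs. In that range 117 members were measured and 15 were past 2-fold (12.8%), against 4.03% over all 2136 measured loci of that range, members included, with 2.11% higher and 1.92% lower. The other 2019 loci of the range had 43 higher and 28 lower. Of the 15 members, 13 had passed the filter only through their higher library, so the 12.8% is not independent of the ratio. No comparison within this depth range was made with 1 FPKM required in both libraries. From a mean of 20 read pairs upward, none was past 2-fold among 74 members at 20 to 50 pairs, 86 at 50 to 200 and 51 above. With at least 20 read pairs required in each library, 0 of 198 members were past 2-fold, against 0.265% of 20359 loci. By structure, 12 of the 15 were among the 170 measured short-gap members of 2 exons (7.06%). The other 3 were among the 60 measured 2-exon members with a longer gap (5%). None of the 85 measured members of 3 or more exons was past 2-fold, and their log2 ratios ran from -0.94 to 0.68. Members of 3 or more exons were also deeper, with medians of 136 (yeast) and 141 (water) read pairs. The short-gap members had medians of 18.5 (yeast) and 19.9 (water). The structures were not compared at equal depth. The 13 lower members had lengths of 218 to 298 bases and held 0 to 8.2 read pairs in the yeast-treated and 8.5 to 30.8 in the water-treated library.

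**Figure D5:**
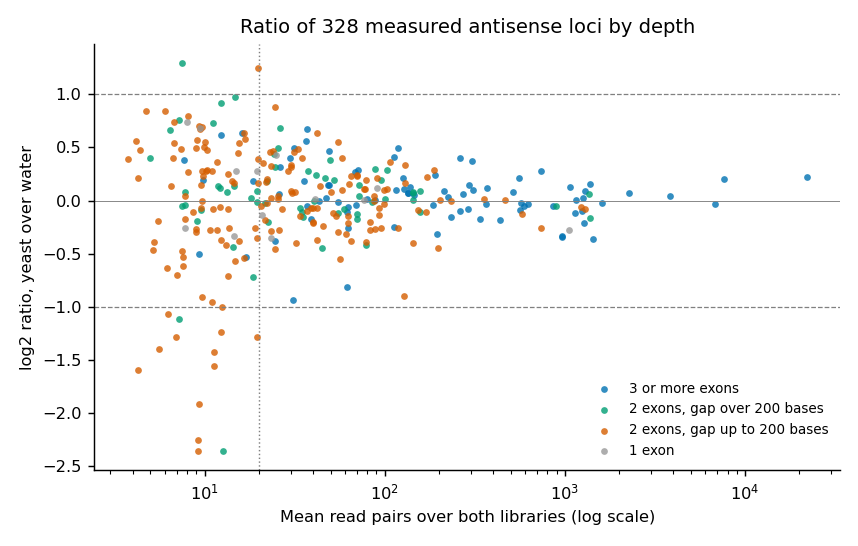
Log2 ratio of yeast-treated over water-treated FPKM, with a pseudocount of 1 (y axis), of the 328 measured members by mean read pairs over both libraries (x axis, log scale), coloured by structure. Dashed lines mark 2-fold and the dotted line 20 read pairs. All points past 2-fold lie left of the dotted line, with 13 below and 2 above.

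MSTRG.10906 had the highest log2 ratio. This 2-exon locus lies on chromosome 17 (12580367 to 12581088, plus strand) and is 438 bases long without its intron. It held 13.6 read pairs in the yeast-treated and 1.4 in the water-treated library, 1.86 FPKM (yeast) and 0.168 FPKM (water). The plain ratio of 11.1 has a counting interval of 2.46 to 684. MSTRG.9134, on the plus strand of chromosome 15 (36978398 to 36978728), was at 6.43 FPKM in the yeast-treated and 2.13 FPKM in the water-treated library, 3.01-fold higher (1.48 to 6.76), while its sense gene was at 60.8 FPKM (yeast) and 57.0 FPKM (water). In the lower direction, MSTRG.6604 on the minus strand of chromosome 14 (14846170 to 14846477) was listed at 0 after yeast treatment and at 4.11 FPKM, 18.3 read pairs, after water. Its sense gene was at 39.9 FPKM (yeast) and 39.6 FPKM (water). MSTRG.16807, on the minus strand of chromosome 6 (1225938 to 1231347), was at 0.250 FPKM in the yeast-treated and 5.38 FPKM in the water-treated library, 21.5-fold lower (3.39 to 854), with 1.0 and 24.2 read pairs. Its sense gene was at 0.136 FPKM after yeast treatment and 0.495 FPKM after water, 3.65-fold lower (1.28 to 15.8). These 4 rest on few read pairs and were picked with their values in view. Of the 328 measured members, 1 had its whole counting interval above 2-fold higher, against 0.231% of all measured loci, and 4 had it beyond 2-fold lower, against 0.222%. Each of these members was under 1 FPKM in its lower library, so it passed the filter through its higher library alone. The counts are therefore not independent of the difference and are no support for it.

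Where both libraries held 20 or more read pairs, the largest plain ratios stayed close to 2-fold. Highest was a 5-exon locus on chromosome 15 (4659629 to 4661981, minus strand). It had 2.27 FPKM after yeast treatment and 1.05 FPKM after water, a plain ratio of 2.17 (1.30 to 3.58), though with the pseudocount it stayed within 2-fold. Its sense gene was at 3.88 FPKM (yeast) and 3.53 FPKM (water). The next 4 were 1.87-fold, 1.80-fold, 1.67-fold and 1.64-fold higher, and the intervals of the last 2 include 1. Lowest was a 3-exon locus on chromosome 6 (18714316 to 18715909, minus strand). It had 4.09 FPKM after yeast treatment and 7.96 FPKM after water, 1.94-fold lower (1.31 to 2.92), with its sense gene at 1.12 FPKM (yeast) and 1.23 FPKM (water).

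Among the 5 lowest of these, 1 member had a sense gene that was lower by about as much. On the plus strand of chromosome 15 (13893841 to 13894208), a 2-exon member with an intron of 70 bases was at 15.9 FPKM in the yeast-treated and 30.5 FPKM in the water-treated library, 1.92-fold lower (1.47 to 2.55). Its sense gene, of a single exon and 630 coding bases, was at 59.5 FPKM after yeast treatment and 119 FPKM after water, a plain ratio of 0.499 (0.459 to 0.541). The antisense share was therefore 8.68% in the yeast-treated and 8.36% in the water-treated library. The other 3 of the 5 lowest members were 1.54-fold, 1.41-fold and 1.39-fold lower, on chromosomes 15, 1 and 2. The interval of the one on chromosome 1 includes equality, and their sense genes had plain ratios of 0.938, 0.941 and 1.07.

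Deeply covered members had narrow counting intervals. The most abundant member, on chromosome 17, was 1.16-fold higher in the yeast-treated library (1.14 to 1.19), and the 8-exon locus on chromosome 4 was 1.15-fold higher (1.11 to 1.19). Their sense genes had plain ratios of 1.05 (1.01 to 1.09) and 1.04 (0.977 to 1.12). The 6-exon locus on chromosome 15 at 31618501 to 31620544 was 1.29-fold lower (1.19 to 1.39), against a plain ratio of 1.11 (1.01 to 1.22) for its sense gene, and its share was 54.9% in the yeast-treated and 63.5% in the water-treated library. The members with the most exons, a 15-exon locus on the minus strand of chromosome 15 (39029583 to 39039638) and a 14-exon locus on the plus strand of chromosome 10 (21350184 to 21359515), had plain ratios of 0.964 (0.875 to 1.06) and 1.18 (1.05 to 1.33). These intervals leave out any variation among fruits.

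The sense genes differed little between the treatments. Of the 270 measured sense loci, 1 was at least 2-fold higher and 1 at least 2-fold lower, 0.741% together, against 0.508% of 19304 annotated loci. The higher one lies on the minus strand of chromosome 15 (10482634 to 10484257) and was at 8.92 FPKM in the yeast-treated and 2.83 FPKM in the water-treated library, 3.15-fold higher (2.38 to 4.21). The member opposite it held 6.5 read pairs in each library and was at 1.90 FPKM in the yeast-treated and 1.65 FPKM in the water-treated library. The lower one, on the plus strand of chromosome 9 (18648386 to 18649717), was at 0.480 FPKM in the yeast-treated and 2.65 FPKM in the water-treated library, with 7.0 and 44.5 read pairs. It was under 1 FPKM after yeast treatment, so it passed the filter through its higher library alone. The member opposite had 0.5 read pairs after yeast treatment and 8.5 after water, below the measured range. The single-exon sense gene on chromosome 15 (13893526 to 13894155) with a plain ratio of 0.499 was not counted. With the pseudocount its log2 ratio was -0.990.

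Antisense shares lay close together in the 2 libraries. For 170 members where locus and sense gene held 20 or more read pairs in both, the antisense share differed by a median of 1.19 percentage points between the treatments, by 5 points or more at 14 members and by 10 or more at 2. Pearson's r of the share between the libraries was 0.992 across these members. The log2 ratios of member and sense gene had a Pearson's r of 0.41 and a Spearman's rho of 0.34, and the same sign in 105 of the 170. Member and sense gene come from the same libraries, so these values describe the loci and carry no test.

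At the 13 members at least 2-fold lower in the yeast-treated library, the log2 ratios of the sense genes, with the same pseudocount of 1 FPKM, lay between -0.40, for the weakly expressed gene opposite MSTRG.16807, and 0.23. Several of these sense genes averaged under 1 FPKM, where the pseudocount shrinks the log2 ratio. As a plain ratio, the gene opposite MSTRG.16807 was 3.65-fold lower. The range therefore does not show that the sense genes were unchanged. The library with fewer read pairs in all was the yeast-treated one, and the part that depth has in these counts was not tested.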

How the data were processed

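RNA was sequenced from wounded pear tissue, 1 library per treatment. The authors deposited a gene table of FPKM and, per the file headers, a transcript table for each library with FPKM, coverage per base (signal), position, exon number and length. Per the submitters' processing notes, HISAT2 and HTSeq 0.6.1 were used, for steps not stated. Build and assembler: not given in the sources used here.

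From these deposited tables, 57919 transcripts were grouped into 45905 loci, and members were found by the span rule with Python 3.11.15, pandas 2.3.3 and NumPy 2.4.6. The sense gene is the opposite-strand annotated transcript covering most of the member, with its locus. At 22 of the 313 sense loci, annotated transcripts were merged into that locus, and its pairs and FPKM cover them all. Locus FPKM was the gene table row, or, where that row did not match the locus, the sum of transcript FPKM. The sum was used for 2 sense loci, and for 117 loci among all measured ones. Read pairs were coverage times length over 300 bases, since covered bases at transcripts with under 1000 were most often 300 in both libraries. A whole multiple of 150 bases, within 0.5, was found for 15.4% of those in the yeast-treated and 14.8% in the water-treated library. No count model was fitted to these estimates. Exact intervals (SciPy 1.17.1) used pairs rounded to whole numbers, and without molecular identifiers a pair is not always a separate molecule. The overlap rule was checked on constructed spans. On simulated counts, recovery of 4-fold changes was checked at loci averaging 5 FPKM or more. Intervals were checked at unchanged loci with 20 or more pairs in each library. The members past 2-fold lay below both limits, so these checks do not cover them.

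The rules for describing members singly took the 10 with the most pairs, the 3 with the most exons, and those listed at 0 against at least 30 pairs (none). They also took the 5 largest ratios each way and the 5 highest shares with at least 20 pairs in each library. A last rule took those whose sense gene was past 2-fold with at least 20 pairs in each library. Other members described singly, among them those given by identifier, fell outside these rules. Members and rules were chosen with earlier results of these data known.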

Additional observations from a re-analysis of the deposited data

How the results depend on the processing

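The count of 15 members past 2-fold (2 higher, 13 lower) was 38 (19 and 19) with a pseudocount of 0.1 FPKM, 23 (6 and 17) without a filter on low values and 3 (0 and 3) at 4-fold. It was 0 with a pseudocount of 5 FPKM, for members averaging 5 FPKM or more, and for those with 20 or more read pairs in both libraries. It stayed between 12 and 16 with summed transcript FPKM, centring, loci above 0 in both libraries, spans covered for 100%, and 2 or more exons. Without the 2-exon members of short gap, an alternative chosen after the data were seen, it was 3 (1 and 2), and with 1 FPKM required in both libraries, also chosen then, 2 (1 and 1). The count of 2 sense genes was 0 with a pseudocount of 5 FPKM and at 4-fold, and 1 when 5 FPKM on average, 20 read pairs in both libraries or 1 FPKM in both were required. With a pseudocount of 0.1 FPKM it was 3 (1 higher, 2 lower).

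The pooled antisense share of 16.2% in the yeast-treated and 15.1% in the water-treated library was 17.2% and 15.8% with spans covered for 100%, 16.4% and 15.2% with 2 or more exons, 8.94% and 8.72% without the 5 members with the most pairs, and 35.0% and 34.4% without the 2-exon members of short gap. The median log2 ratio of members stayed between -0.01 and 0.06 in all 9 alternatives run for it. Of 54 recomputed ratios of 27 named loci at other pseudocounts, 53 stayed within their counting interval. The exception was the 5-exon locus on chromosome 15 at 4659629, at 0.27 on the log2 scale with a pseudocount of 5 FPKM. These pseudocounts for single loci were also chosen after the data were seen. Causes were not tested. The median counting interval of a measured member spanned 2.71-fold from lower to upper bound, which limits single ratios. No paired analysis was possible because there is a single library per treatment. For the same reason none could be left out.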

Other observations

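The gene name column of the transcript tables carried the name of an annotated gene for all 353 members, and for 346 of them it was the name of the sense gene on the opposite strand. A sum over that column would therefore add antisense pairs to the sense gene. In the deposited gene table the members stood in 353 rows of their own. No row of an annotated gene was found with the values of the member that shares its name.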
